A study of Oryza sativa with 12 samples.

Results

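Rice (Oryza sativa) cells growing in suspension were kept for 48 h without sucrose, and their messenger RNA was set against that of cells given sucrose for as long. The 3 arrays labelled in this way, of 12 in the study, make up the comparison described here, and 18463 of the 21495 probes had a value on all 3 and were tested. The starved cells stood in Murashige and Skoog medium lacking sucrose, and the control cells had 3% sucrose in it. The other arrays came in groups of 3 as well, for cells 12 and 24 h without sucrose against 3% sucrose, and for cells 12 h without sucrose against 88 mM sorbitol, an osmotic control. On every array the starved cells carried Cy5 and the control cells Cy3. No osmotic control was labelled for 48 h, so loss of sugar and loss of its osmotic pressure cannot be told apart at that time. Nothing in the labels tells separate cultures from repeated arrays of a culture, and the p-values here may therefore measure technical spread only.

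Sucrose is the carbon source of cultured plant cells, which have no photosynthesis to fall back on. When it runs out, plant cells are known to turn first to their starch and then to protein, amino acids and lipids, while growth and division stop. In rice, alpha-amylase genes of the RAmy3 group are a textbook case of genes switched on by sugar loss, through MYB factors and the SnRK1 kinase.

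Each value below is a log2 ratio of starved over control cells within an array, and a gene was called when limma's test of the mean of 3 arrays against 0 gave an adjusted p under 0.05. A called gene is said to have risen or fallen. The deposited values state neither their log base nor their direction. They were read as natural logs from the values themselves, and on another base every ratio here would scale alike without changing a call. Starved over control follows from the dye labels and is the likely direction, as RAmy3D and RAmy3E had positive ratios. No dyes were swapped, so the dye bias of a probe remains in its mean. Ratios give no level of expression, which leaves the labelled cell type without a check by level. In a culture of many cells, a smaller number of cells of a kind and less RNA in each cannot be told apart. Genes with near copies, such as those of RAB16 proteins, alpha-amylases, metallothioneins and chitinases, may share signal on a probe.

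The 48 h response was broad and even in both directions: 1369 probes rose and 1369 fell, 7.41% of those tested each way and 14.8% together. Of these, 1105 rose and 1171 fell by at least 2-fold, 378 and 281 by at least 4-fold, and 29 and 8 by at least 16-fold. The called probes included 441 of 426 genes with a name, 1998 of genes known only by a locus number, and 299 without a single gene. The 3 arrays differed in reach. Log2 ratios over probes had an SD of 0.95 in replicate 1, 1.26 in replicate 2 and 0.645 in replicate 3, and 20.1%, 34.9% and 7.52% of probes lay at least 2-fold from 1. Replicate 2 had blanks at 13.6% of probes, against 0.89% and 1.0% in replicates 1 and 3, and 2640 probes were untested for a blank on it alone. Across probes, which are not independent replicates, the arrays correlated with r of 0.596 to 0.641. Without replicate 2 the count fell to 538 (267 higher and 271 lower), without replicate 1 it was 1001 (479 and 522), and without replicate 3 it was 2685 (1293 and 1392). These were out of 21103, 18476 and 18555 tested probes. List counts given below for these fits are to be read against these totals, as calls were fewer over all probes too. All other list counts at 48 h are to be read against the 7.41% of all probes called each way, and some lists lay near it. With only the 48 h arrays in the fit the count was 924, and with the replicate numbers, which pair the 24 and 48 h arrays, as a block it was 4311 (2005 higher and 2306 lower). Of the 2738 called probes, 476 kept their call with any 1 of the 9 arrays against sucrose left out.

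**Figure D1:**
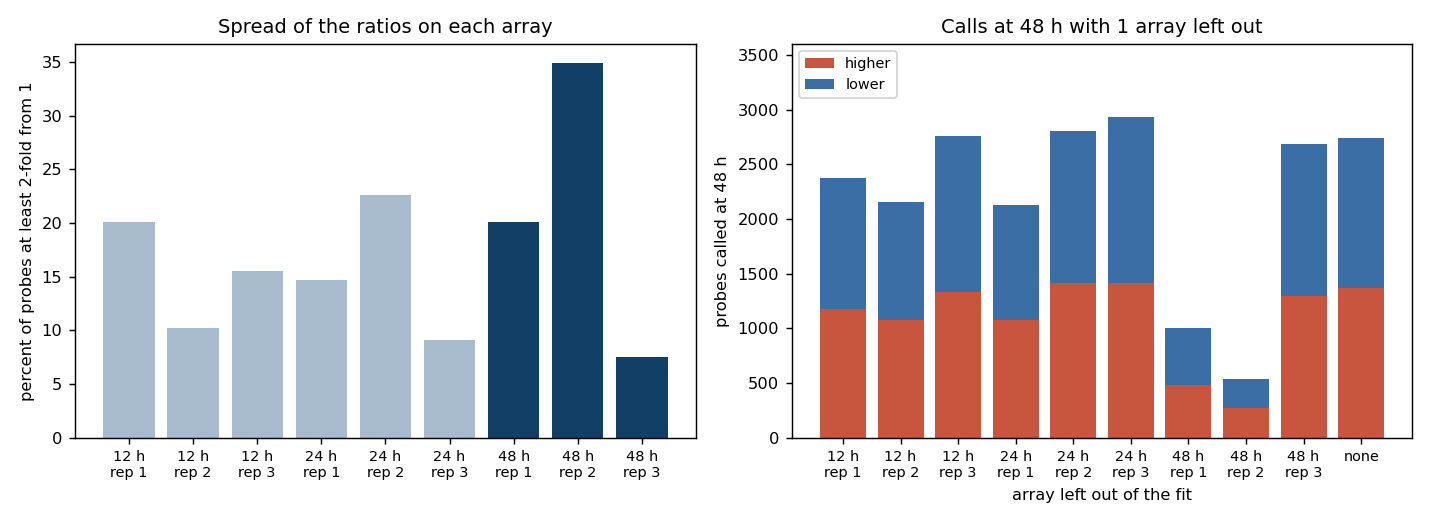
Left, the percent of probes at least 2-fold higher or lower in starved cells on each of the 9 arrays against sucrose; right, the number of probes called higher and lower at 48 h with each of these arrays left out in turn and with none left out. Replicate 2 at 48 h has the largest share of probes beyond 2-fold (34.9%) and replicate 3 the smallest of the 48 h arrays (7.52%), and the calls number 538 without replicate 2.

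The largest rise of a named gene was that of the chitinase gene Cht-3 (LOC4342114), whose enzyme cuts the chitin of fungal walls. Its log2 ratios were 4.73, 7.06 and 4.61 in replicates 1 to 3, a mean of 5.47 ± 1.38 (SD, n = 3 for this and all later means) and a 44.3-fold rise (limma adjusted p = 0.000364). The sugar transporter gene OsSWEET1b (LOC4338851) had 6.31, 6.68 and 2.55, a mean of 5.18 ± 2.29 and a 36.3-fold rise (limma adjusted p = 0.00111). Replicate 3 was the low array for this gene and the other 2 lay close together. The metallothionein gene MT1B (LOC4332487), for a small metal-binding protein, had 3.47, 6.71 and 4.27, a mean of 4.82 ± 1.69 (limma adjusted p = 0.00195). The smallest spread among the large rises was that of the dehydrin gene RAB16B (LOC4350453), with 4.36, 4.93 and 4.90, a mean of 4.73 ± 0.32, a 26.6-fold rise and the lowest adjusted p of the genes named here (limma adjusted p = 1.41e-05). All of these calls held with any 1 array left out. The adjusted p then reached 0.00514 for Cht-3, 0.0165 for OsSWEET1b, 0.025 for MT1B and 0.000317 for RAB16B.

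Among the other large rises, GER2 (LOC4344839), for a germin-like protein of the cell wall, averaged 4.55 ± 2.38 from 5.32, 6.45 and 1.88. Its call was lost without replicate 1 or 2 (limma adjusted p up to 0.176). IRL1 (LOC4336911), for a leucine-rich repeat protein of the intracellular Ras-group-related kind, averaged 3.70 ± 0.71 and GLO3 (LOC4337048), for a glycolate oxidase of peroxisomes, 3.47 ± 0.95, from 2.59, 4.47 and 3.35. Both kept their calls with any 1 array left out.

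The deepest fall of a named gene was that of PDC1 (LOC4339066), for the pyruvate decarboxylase that opens the path to ethanol. It had -4.05, -3.30 and -5.55, a mean of -4.30 ± 1.14, and stood 19.7-fold lower in starved cells (limma adjusted p = 0.000507). Next came CAD7 (LOC4336968), for a cinnamyl alcohol dehydrogenase, with -3.19, -3.55 and -4.79, and CCR1 (LOC4331085), for a cinnamoyl-CoA reductase, with -3.61, -2.49 and -4.29. Both enzymes reduce the precursors of lignin, and their means were -3.85 ± 0.84 and -3.46 ± 0.91. The argonaute gene AGO4A (LOC4324438), of the small RNA machinery, had -3.02, -3.19 and -2.33, a mean of -2.85 ± 0.45, with its call lost without replicate 2 (limma adjusted p = 0.0614). HOX33 (LOC4352777) and hox32 (LOC4333544), for transcription factors of the HD-Zip III class, fell too. The 2 probes of HOX33 averaged -3.22 ± 1.36 and -2.48 ± 1.15, the second losing its call without replicate 1 or 2 (limma adjusted p up to 0.119), and hox32 averaged -2.32 ± 0.39.

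**Figure D2:**
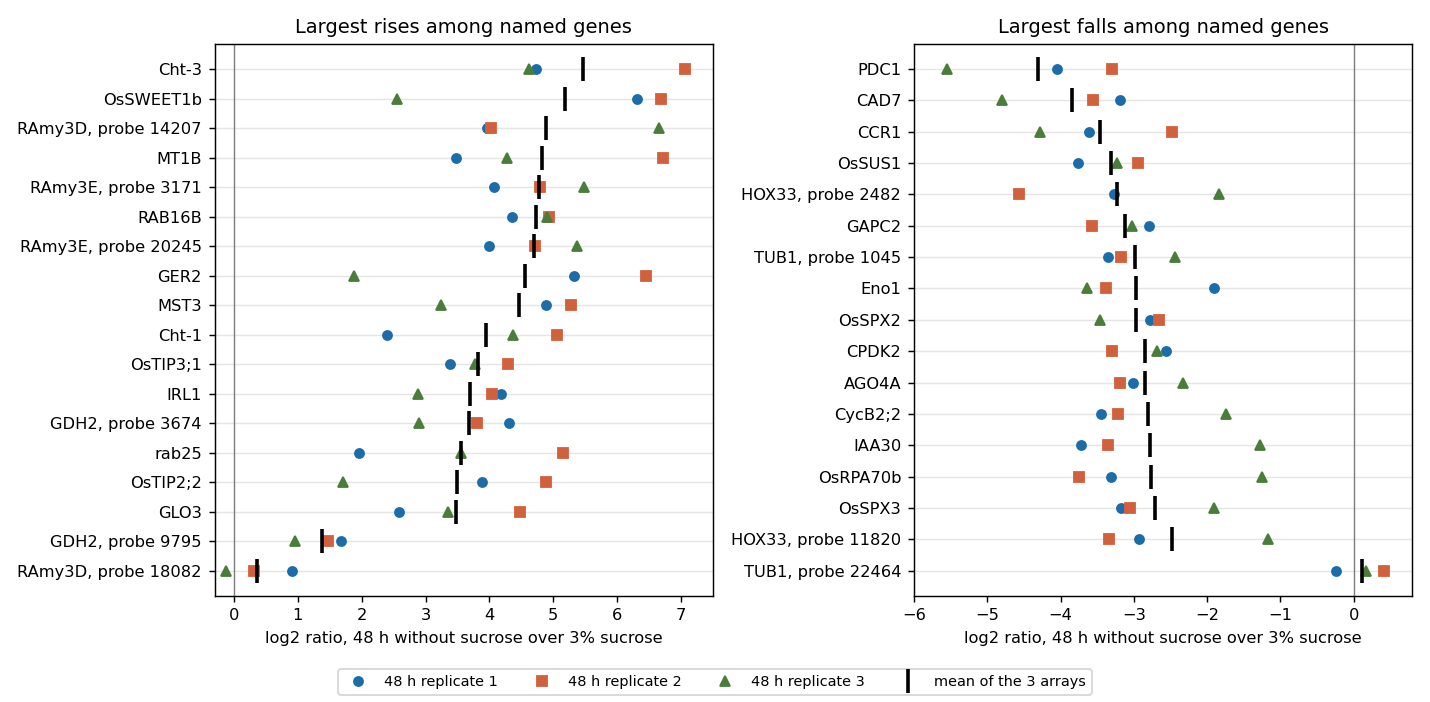
Log2 ratio of starved over control cells at 48 h for the named genes with the 15 largest rises and the 15 largest falls, every probe of a gene in its own line, with a point for each of the 3 arrays and a bar at the mean. RAB16B (4.36 to 4.93) has its points close together, OsSWEET1b (2.55 to 6.68) has a wide range, and the second probes of RAmy3D (0.37) and TUB1 (0.11) lie near 0.

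Starch breakdown was led by the 2 alpha-amylase genes known from sugar starvation, whose sign also served to read the direction of the ratios. Of 9 tested probes on this list (10 in all, 8 genes), 3 rose and 1 fell, where 7.41% of all probes did so each way, with a median of 0.79 against 0.01 over all probes. RAmy3E (LOC4345812) had 4.07, 4.79 and 5.47 on its first probe, a mean of 4.78 ± 0.70 and a 27.4-fold rise (limma adjusted p = 0.000514), and its second probe averaged 4.69 ± 0.69. RAmy3D (LOC4345814) had 3.97, 4.02 and 6.65 on a probe that averaged 4.88 ± 1.53 (29.4-fold, limma adjusted p = 0.00205). Its other probe had 0.91, 0.32 and -0.12 and was not called (limma adjusted p = 0.527), so the 2 probes of this gene disagree. RAmy3A (LOC4347262), a further member of the subfamily, had 5.20, 0.27 and 0.89, high in replicate 1 alone, and was not called (limma adjusted p = 0.114). DPE2 (LOC4344192), whose enzyme handles the maltose that starch releases, was the member that fell, by 0.93 on the log2 scale (SD 0.21), and lost its call without replicate 1 or 2 (limma adjusted p up to 0.126). The maltose exporter gene MEX1 had a mean of -0.20 ± 0.55. None of 3 tested probes for starch synthesis was called: the branching enzyme gene Rbe1, the starch synthase gene SS1 and the granule-bound synthase gene Wx averaged 0.32, 0.06 and 0.02.

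Sugar transporters moved in both directions, and 5 of 13 tested probes rose while 2 fell (19 probes of 18 genes in all; median 0.64). Without replicate 1 or 2 there were 4 rises and 1 fall, and the median was -0.02 over 17 probes without replicate 2 and 0.86 without replicate 3. Leaving out replicate 2 brings in probes that are blank on it, and over the 13 probes the medians were 1.01, 0.70 and 0.19 in replicates 1 to 3. Besides OsSWEET1b, the monosaccharide carrier gene MST3 (LOC4342198) had 4.88, 5.28 and 3.25, a mean of 4.47 ± 1.08 and a 22.1-fold rise (limma adjusted p = 0.000914). The sucrose carrier gene OsSUT1 (LOC4331775), known for loading sucrose across the plasma membrane, had 2.51, 2.77 and 2.37, a mean of 2.55 ± 0.20 (limma adjusted p = 0.00057). OsSUT2 (LOC9266530), whose carrier sits in the vacuole membrane, went the other way, with -1.28, -1.68 and -1.54 and a mean of -1.50 ± 0.20 (limma adjusted p = 0.0258), a call lost without any 1 of the 48 h arrays (limma adjusted p up to 0.172). OsSWEET1a (LOC4324848), a close relative of OsSWEET1b, fell as well, with -2.45, -1.91 and -3.06 and a mean of -2.47 ± 0.57 (limma adjusted p = 0.00241). Its second probe was blank on replicate 2 and had -0.13 and 0.09 on the others. The triose phosphate translocator gene TPT averaged -1.02 ± 0.87 and was not called.

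Genes that cleave and make sucrose were divided. Of 25 tested probes (30 of 26 genes in all), 4 rose and 4 fell, with a median of 0.14 (0.30 without replicate 1 and 0.0 without replicate 3). OsSUS1 (LOC4333062), for a sucrose synthase, which in spite of its name mainly splits sucrose, had -3.76, -2.94 and -3.23, a mean of -3.31 ± 0.42 and a level 9.91-fold lower in starved cells (limma adjusted p = 0.000329). Its relative OsSUS4 (LOC4332788) had 0.70, 2.54 and 0.75, a mean of 1.33 ± 1.05, and rose, though not without replicate 1 or 2 (limma adjusted p up to 0.247). The sucrose-phosphate synthase genes, whose enzymes build sucrose, also parted: OsSPS4F averaged 1.41 ± 0.52 and rose, a call lost without replicate 2 (limma adjusted p = 0.0552), and OsSPS3F averaged -0.92 ± 0.06 and fell, a call lost without replicate 1 or 2 (limma adjusted p up to 0.102). Likewise the trehalose-6-phosphate phosphatase gene OsTPP2 (LOC4349333) had 1.49, 2.67 and 1.21 and rose (limma adjusted p = 0.00673), lost without replicate 2 (limma adjusted p = 0.0731). OsTPP1 (LOC4330221) had -2.60, -1.38 and -1.73 and fell (limma adjusted p = 0.00678), lost without replicate 1 (limma adjusted p = 0.0565). Trehalose-6-phosphate is known as a signal of sugar status, which these phosphatases remove. Without replicate 1 this list had 2 rises and 1 fall, and without replicate 2 it had 0 and 2.

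Of 16 tested probes for sugar sensing (17 of 15 genes), 4 rose and 2 fell, with a median of 0.24. HXK6 (LOC4338010), for a hexokinase of the kind that both phosphorylates and senses glucose, had 3.09, 2.44 and 2.07, a mean of 2.53 ± 0.52 (limma adjusted p = 0.000508). HXK4 averaged 1.84 ± 1.57 and lost its call without 48 h replicate 1 or 2, 12 h replicate 2 or 3 or 24 h replicate 1 (limma adjusted p up to 0.326). Both genes listed as HXK2 fell: the one at LOC4339420 had -0.96, -1.95 and -1.31 (limma adjusted p = 0.00425), while the one at LOC4326547 averaged -0.73 ± 0.31 and lost its call without any 1 array (limma adjusted p up to 0.218). OSK24 (LOC4345873), for a kinase of the SnRK1 family, had 2.62, 2.62 and 0.88, a mean of 2.04 ± 1.01 (limma adjusted p = 0.0044), lost without replicate 2 (limma adjusted p = 0.057). The related kinase genes OSK3 and OSK1 averaged 0.52 ± 0.53 and -0.57 ± 0.12 and were not called. MYBS1 (LOC4323963), for the MYB factor that binds amylase promoters under starvation, had 2.49, 1.85 and 1.04 and a mean of 1.79 ± 0.72 (limma adjusted p = 0.012), lost without replicate 1 or 2 (limma adjusted p up to 0.0943). The fructokinase gene FKI averaged -0.85 ± 0.71 and was not called. Without replicate 1 this list had 2 rises and 1 fall, and without replicate 2 it had 1 and 1.

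Glycolysis, which burns sugar to pyruvate, stood mostly low. All 10 tested probes had a mean below 0, where 9068 of 18463 of all probes did, and 6 fell, with a median of -2.25. FBA2 and a probe of GAPC lay near 0, at -0.12 and -0.09, and were not called. The other probe of GAPC fell at -2.16, so the 2 probes of that gene disagree. At 12 and 24 h the same list had medians of -0.75 and -0.89, with 1 and 3 probes called lower, where 1.3% and 1.34% of all probes were. GAPC2 (LOC4336216), for the cytosolic glyceraldehyde-3-phosphate dehydrogenase, had -2.79, -3.57 and -3.02, a mean of -3.12 ± 0.40 and a level 8.72-fold lower in starved cells (limma adjusted p = 0.000384). The enolase gene Eno1 (LOC4348176) had -1.90, -3.38 and -3.64, a mean of -2.97 ± 0.94 (limma adjusted p = 0.00084), and the pyruvate kinase gene OsPK2 (LOC4351493) had -2.75, -2.46 and -2.15, a mean of -2.46 ± 0.30 (limma adjusted p = 0.00271). These 3 genes were low on every array and kept their calls with any 1 array left out. Without replicate 1, 2 or 3 the list had 8, 6 and 6 falls.

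All 3 tested probes for ethanol fermentation fell (4 in the table; median -2.70). After PDC1 came PDC2 (LOC4332519), with -2.32, -2.47 and -3.32 and a mean of -2.70 ± 0.54 (limma adjusted p = 0.000744). The alcohol dehydrogenase gene Adh2 (LOC4350054) had -1.92, -0.80 and -0.86, a mean of -1.19 ± 0.63, and lost its call without replicate 1 or 2 (limma adjusted p up to 0.179). By contrast, none of 11 probes for pyruvate dehydrogenase and the tricarboxylic acid cycle was called, and their median was -0.21 (1 fell with the block). The values of named members ran from -1.06 ± 1.32 for PDHE1-A (LOC4340640) to 0.59 ± 0.18 for SCS-beta, for a subunit of succinyl-CoA ligase. Of 10 probes for mitochondrial carriers and respiration (median -0.45), 1 fell. It was that of AOX1 (LOC4336874), for the alternative oxidase, with -2.49, -1.83 and -0.65 and a mean of -1.66 ± 0.93 (limma adjusted p = 0.0132), lost without replicate 1 or 2 (limma adjusted p up to 0.109).

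For enzymes that feed carbon back toward sugar, both tested probes of the list rose (3 in all), though on uneven arrays. Another dikinase gene, outside the list, fell. ICL (LOC4343441), for the isocitrate lyase of the glyoxylate cycle, which turns fatty acid carbon into sugar precursors, had 5.01, 4.56 and 0.59, a mean of 3.39 ± 2.44 (limma adjusted p = 0.0175). OsPPDKB (LOC4338750), for a pyruvate, phosphate dikinase, had 2.54, 4.32 and 0.14, a mean of 2.33 ± 2.10 (limma adjusted p = 0.0396). Replicate 3 lay near 0 for both, and both lost their calls without replicate 1 or 2 and with only the 48 h arrays in the fit (OsPPDKB also without 12 h replicate 1 or 2), with adjusted p up to 0.172 and 0.341 with an array left out. This second dikinase gene, CPDK2 (LOC4333181), had -2.56, -3.30 and -2.69, a mean of -2.85 ± 0.39 (limma adjusted p = 0.000893). Its call, unlike those of ICL and OsPPDKB, held with any 1 array left out (limma adjusted p up to 0.0138). Of the beta-oxidation list only MFP, for the multifunctional protein of that path, was measured, and its 2 probes disagreed, at -1.57 ± 0.59, a call lost without replicate 1 or 2 (limma adjusted p up to 0.191), and 0.74 ± 0.71, not called.

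Breakdown of amino acids was on the rising side. Of 6 tested probes for leucine breakdown and the electron transfer flavoprotein, which passes its electrons to respiration, 5 rose and none fell (7 probes of 5 genes in all), with a median of 1.65. IVD (LOC4337676), for isovaleryl-CoA dehydrogenase, had 2.49, 1.33 and 1.96, a mean of 1.93 ± 0.58 (limma adjusted p = 0.00392), and kept its call with any 1 array left out. MCCA (LOC4352741), for a subunit of methylcrotonyl-CoA carboxylase, averaged 1.94 ± 1.16 on a probe that lost its call without replicate 1 or 2 (limma adjusted p up to 0.131) and 0.48 ± 0.89 on a probe that was not called. D2HGDH (LOC4342598), for D-2-hydroxyglutarate dehydrogenase, another donor to the flavoprotein, had 1.48, 2.06 and 1.62 and a mean of 1.72 ± 0.30 (limma adjusted p = 0.0107), lost without replicate 2 (limma adjusted p = 0.105). Without replicate 1, 2 or 3 the list had 3, 2 and 4 rises.

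Of 6 further probes for amino acid breakdown, 3 rose (median 0.96, and 0.56 over 7 probes without replicate 2), from 2 genes. GDH2 (LOC4336554), for a glutamate dehydrogenase, which strips ammonia from glutamate, had 4.31, 3.80 and 2.90, a mean of 3.67 ± 0.71 and a 12.7-fold rise (limma adjusted p = 0.000329). Its second probe rose less, with 1.68, 1.48 and 0.96, and was lost without replicate 1 or 2 (limma adjusted p up to 0.0616). HGO (LOC4339844), for the homogentisate dioxygenase of tyrosine breakdown, had 2.22, 2.26 and 1.13 and a mean of 1.87 ± 0.64 (limma adjusted p = 0.00292). The 2 probes of OAT, for ornithine aminotransferase, averaged 0.54 ± 0.60 and 0.47 ± 0.75 and were not called. Without replicate 1 or 2 this list had 2 rises each time.

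Nitrogen uptake and assimilation had 1 rise and 1 fall among 12 tested probes (median 0.20, and 0.10 without replicate 2 and 0.09 without replicate 3). That was 8.3% each way, near the 7.41% of all probes. NIA1 (LOC4345795), for nitrate reductase, had -2.90, -3.59 and -1.60, a mean of -2.70 ± 1.01 (limma adjusted p = 0.00155), and its second probe was blank on replicate 2 and had 0.22 and 0.70 on the others. NRT2.3 (LOC4324249), for a high-affinity nitrate transporter, had 2.27, 2.43 and 0.86, a mean of 1.85 ± 0.86 (limma adjusted p = 0.0277), lost without replicate 1 or 2 (limma adjusted p up to 0.22). NAR2.2, for a partner protein of such transporters, averaged -1.33 ± 0.56, and the glutamine synthetase gene OsGLN1;3 1.03 ± 1.46, and neither was called.

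Among genes of protein turnover, inhibitors of proteases rose. Cystatins, which block cysteine proteases, had 4 rises and no fall among 6 tested probes, all above 0, with a median of 1.28. OC-I (LOC4327535) had 1.90, 4.41 and 2.24, a mean of 2.85 ± 1.36 and a 7.21-fold rise (limma adjusted p = 0.00195), held with any 1 array left out. OC-XII (LOC4326272) had 1.54, 2.83 and 1.96, a mean of 2.11 ± 0.66 (limma adjusted p = 0.00715), lost without replicate 2 (limma adjusted p = 0.0874), and OC-VIII averaged 1.32 ± 0.52 and lost its call without 12 h replicate 1 or any 1 of the 48 h arrays (limma adjusted p up to 0.279). Replicate 2 was the highest array for all 3, and without it the list had 1 rise (2 without replicate 3). At 12 h the list's median was 0.15 and at 24 h 0.89, with no call among 7 tested probes at either time. Only 1.85% and 1.99% of all probes rose at these times, so the lack of a call says little.

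Of 20 probes for proteases, FTSH1 (LOC4342113), for a membrane-bound metalloprotease, was the single rise at 1.22 ± 0.66 (lost without replicate 1 or 2, limma adjusted p up to 0.217), and none fell. Most of these probes were of the FTSH and CLP families, so the list says little of the cysteine proteases that cystatins block. The 4 autophagy genes measured were not called: ATG8C, ATG4B, ATG5 and ATG8A averaged 0.76 ± 0.59, 0.47 ± 0.46, 0.18 ± 0.07 and -0.20 ± 0.32. Of 30 probes for ubiquitin and the proteasome (median -0.20), the ubiquitin gene UBQ3 (LOC4337080) rose at 1.65 ± 0.65, lost without replicate 2 or 3 (limma adjusted p up to 0.131). UBQ2 (LOC4347896) fell on a probe at -2.07 ± 0.48 (limma adjusted p = 0.00254), while its second probe stood at 0.26 ± 0.20. The proteasome ATPase genes OsRPT1 and OsRPT1b averaged 0.62 and 0.05 on the 2 probes of OsRPT1 and -0.75 for OsRPT1b, all uncalled. With the block this list had 1 rise and 4 falls.

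Genes known from drying seeds and water stress were among the highest. Of 6 probes for dehydrins and late embryogenesis abundant proteins, which shield cell structures when water is short, 3 rose and all lay above 0, with a median of 2.11 (1.38 without replicate 2). After RAB16B came rab25 (LOC4326935), with 1.95, 5.15 and 3.55 and a mean of 3.55 ± 1.60 (limma adjusted p = 0.00226). EM (LOC4338499) had 0.49, 4.74 and 3.43, a mean of 2.89 ± 2.18 (limma adjusted p = 0.0221), low in replicate 1 and lost without replicate 2 or 3 (limma adjusted p up to 0.225). The 2 neighbours of RAB16B in its gene family, RAB16C and RAB16D, chosen here after their values were seen, averaged 0.19 ± 0.12 and 0.20 ± 0.23 and were not called. RAB16B and EM were also above 0 on the 12 h sorbitol arrays, at 1.12 and 2.40, where both channels lacked sucrose.

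Metallothioneins had 4 rises and no fall among 8 tested probes, with a median of 1.56 against 0.49 at 12 h and 0.92 at 24 h. MT1A (LOC4351213) had 1.58, 3.15 and 3.25, a mean of 2.66 ± 0.93 (limma adjusted p = 0.00165). MT2C (LOC4337596) had 0.76, 3.71 and 4.63 on a probe that was lost without replicate 2 or 3 (limma adjusted p up to 0.185) and 2.03, -0.61 and 0.17 on a probe that was not called. MT4C averaged -0.07 ± 0.25 and MT2B -0.12 ± 0.18, with a second probe blank on replicate 2 and 0.08 and 0.29 on the others. The remaining rise was MT21A (LOC4349263), named after its values were seen, with 1.09, 3.04 and 3.19 and a mean of 2.44 ± 1.17 (limma adjusted p = 0.00956), a call lost with 1 of the 9 arrays left out. Without replicate 2 the list had 2 rises.

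Chitinases and related defence proteins had 4 rises and no fall among 10 tested probes. The median was 0.46 over the 3 arrays and -0.01, 1.5 and 0.31 in replicates 1 to 3, so replicate 2 was the high array. It was -0.02 over 13 probes without replicate 2 and 0.85 without replicate 1, with 3 rises each time. Cht-1 (LOC4342115) had 2.39, 5.06 and 4.36, a mean of 3.94 ± 1.38 and a 15.3-fold rise (limma adjusted p = 0.000928), and Rcb4 (LOC4348631) had 2.27, 3.99 and 2.58, a mean of 2.94 ± 0.92 (limma adjusted p = 0.00272). The defence genes PBZ1 and RIXI, for a PR-10 protein and a xylanase inhibitor, averaged -0.61 ± 0.87 and -0.75 ± 1.14 and were not called.

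The antioxidant list had 3 rises and 6 falls among 36 probes (median -0.02, and 0.07 without replicate 2). These were 8.3% and 16.7%, where 7.41% of all probes were called each way, so its rises were near that share. CAT-B (LOC4342124), for a catalase, which destroys hydrogen peroxide, had 2.26, 3.36 and 2.25, a mean of 2.62 ± 0.64 (limma adjusted p = 0.000522), and the thioredoxin gene OsTrx15 had 2.72, 2.00 and 1.19, a mean of 1.97 ± 0.76 (limma adjusted p = 0.00354). On the falling side, sodA (LOC4338417), for the manganese superoxide dismutase, had -1.20, -1.30 and -2.24, a mean of -1.58 ± 0.57 (limma adjusted p = 0.00554). APX7, for a plastid ascorbate peroxidase, averaged -1.95 ± 1.03 on a called probe, lost without 48 h replicate 1 or 2 or 12 h replicate 1 (limma adjusted p up to 0.206), and -0.83 ± 0.75 on an uncalled probe. Without replicate 1, 2 or 3 the list had 2, 2 and 4 rises and 1, 2 and 3 falls, and with the replicate block it had 6 rises and 10 falls. Of 36 probes for heat shock factors and proteins, 2 rose and 2 fell (median 0.07), and with the block 8 rose and 3 fell. The 5.6% each way without the block was no more than the share of all probes. HSF25 (LOC4348646) fell on a probe with -3.86, -2.18 and -1.34 (limma adjusted p = 0.00497) and had -0.77 ± 0.26, uncalled, on its second. HSF07 rose at 1.50 ± 0.76, lost without replicate 1 or 2, and HSP26.7 fell at -1.17 ± 0.62, lost without 48 h replicate 1 or 2, 12 h replicate 1 or 24 h replicate 1 (limma adjusted p up to 0.173 and 0.216). The list had no rise and 1 fall without replicate 1 or without replicate 2.

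**Figure D3:**
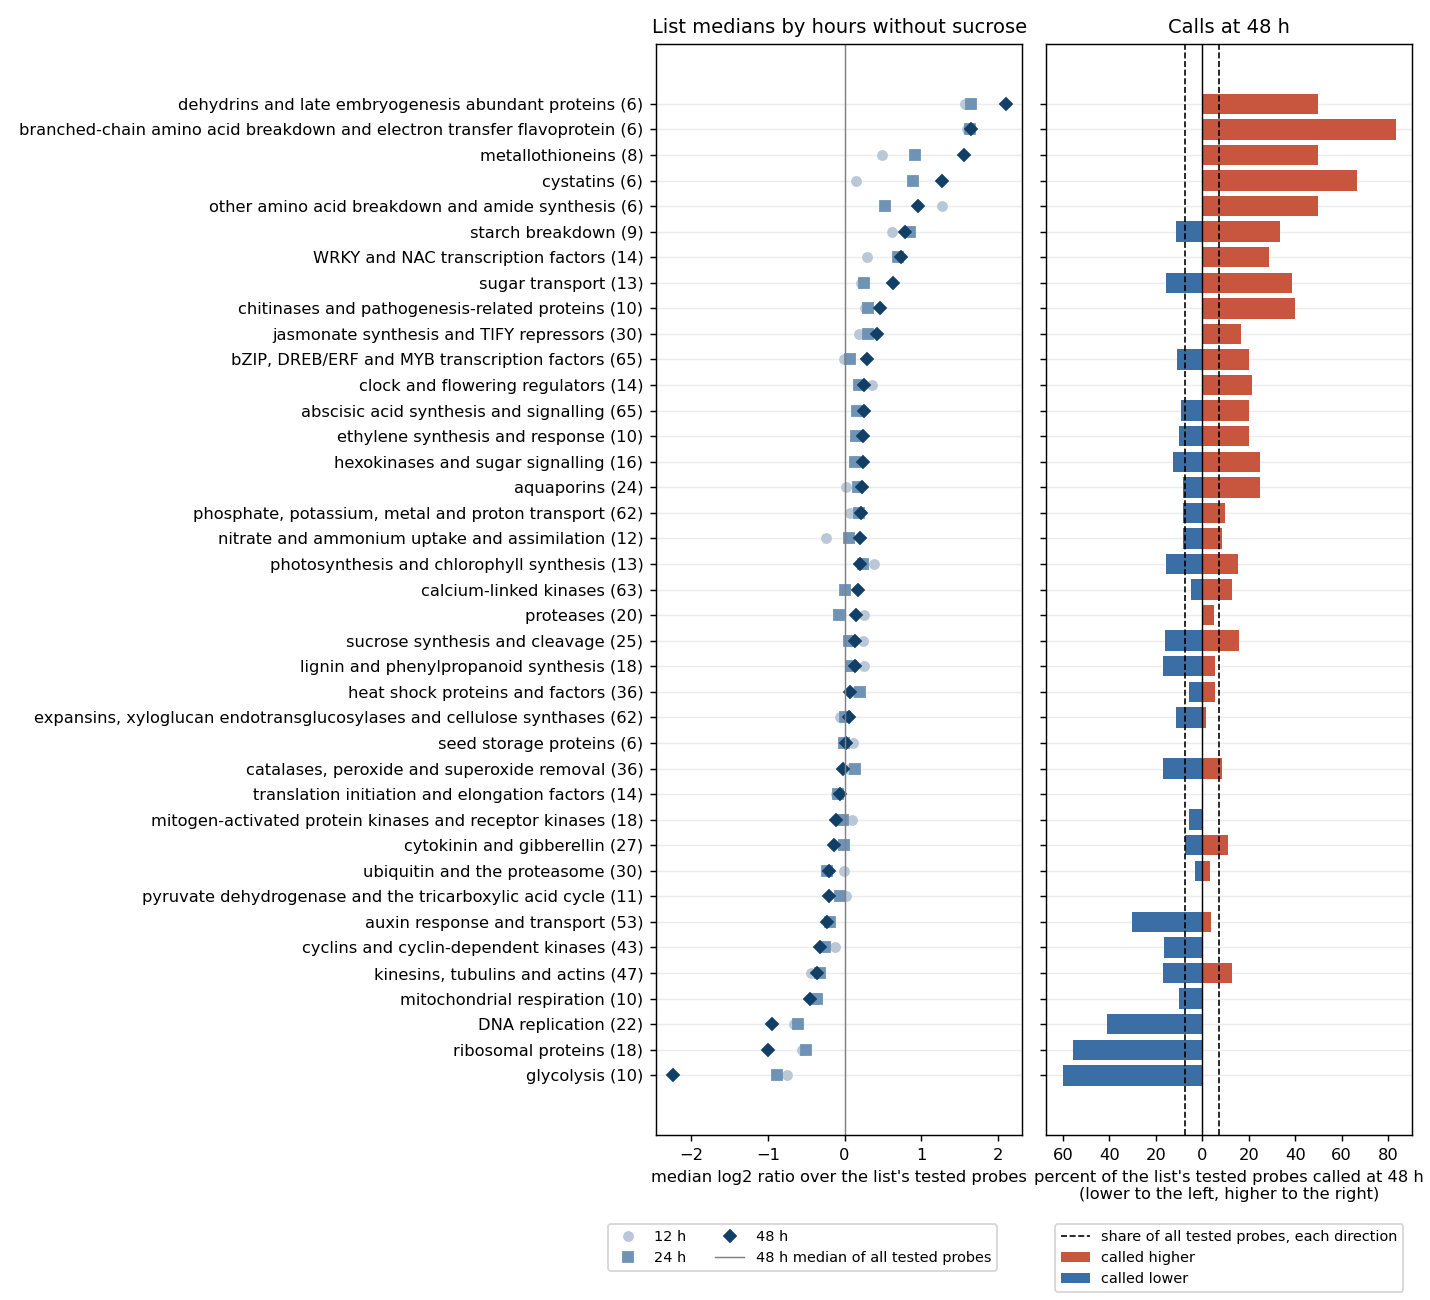
Gene lists with at least 6 tested probes at 48 h: left, the median log2 ratio of starved over control cells at 12, 24 and 48 h; right, the percent of tested probes called higher and lower at 48 h, with dashed lines at the 7.41% of all probes called each way. Glycolysis (median -2.25) and ribosomal proteins (-1.0) lie lowest at 48 h, and dehydrins (2.11), leucine breakdown with the flavoprotein (1.65) and metallothioneins (1.56) highest.

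Genes of abscisic acid signalling, the hormone of drought and dormancy, had 13 rises and 6 falls among 65 tested probes, with a median of 0.26 (0.40 without replicate 1 and 0.14 without replicate 2). Most list members belong to the PP2C phosphatase and SnRK2 kinase families, not all of which act for this hormone. OsSAPK6 (LOC4329630), for an SnRK2 kinase, had 2.41, 2.27 and 2.05, a mean of 2.25 ± 0.18 (limma adjusted p = 0.00165), while the kinase gene OsSAPK7 (LOC4335877) had -1.62, -1.81 and -1.55, a mean of -1.66 ± 0.13 (limma adjusted p = 0.00325). OsSAPK4 (LOC4324934) fell with it on a probe at -1.32 ± 0.34 (limma adjusted p = 0.00364), beside -1.10 ± 0.68, not called, on its second. The phosphatase gene OsPP2C12 (LOC4328768) averaged 2.68 ± 0.93 and 2.05 ± 1.34 on its probes, the first lost without replicate 2 (limma adjusted p = 0.0774) and the second without replicate 1 or 2 (limma adjusted p up to 0.248). ABF2 (LOC4330838), for a bZIP factor of the same pathway, had 1.23, 2.87 and 1.99 (limma adjusted p = 0.0046), lost without replicate 2 (limma adjusted p = 0.056). ABA8OX1, for an enzyme that breaks the hormone down, averaged -1.29 ± 0.69, lost without replicate 1 or 2 (limma adjusted p up to 0.214). Without replicate 1, 2 or 3 the list had 4, 1 and 10 rises and 3, 2 and 7 falls, and with the block 17 rises and 9 falls.

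For jasmonate, 5 of 30 probes rose and none fell (median 0.42, and 0.25 without replicate 2). The JAZ repressor genes JAZ11, JAZ12 and JAZ8 averaged 2.50 ± 1.55, 2.13 ± 0.50 and 2.09 ± 1.02. All 3 were lost without replicate 2, and JAZ11 and JAZ8 also without replicate 3 (limma adjusted p up to 0.253, 0.0692 and 0.235), and without replicate 2 no probe of the list was called (3 without replicate 1 or 3). For ethylene, 2 of 10 rose and 1 fell. The receptor gene ETR2 averaged 1.66 ± 1.17, lost without replicate 1 or 2 (limma adjusted p up to 0.162), and the signalling factor gene EIL1 1.04 ± 0.28, lost without replicate 2 (limma adjusted p = 0.108). ACO1 (LOC4347225), for the last enzyme of ethylene synthesis, had -2.17, -2.17 and -1.80, a mean of -2.05 ± 0.22 (limma adjusted p = 0.00523), lost without replicate 2 (limma adjusted p = 0.0549).

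Several families of transcription factors had rises. Of 14 NAC and WRKY probes 4 rose and none fell (median 0.73, and 0.26 over 16 probes without replicate 2), with NAC45 (LOC4349650) at 2.21 ± 0.65, NAC074 (LOC4325120) at 1.92 ± 0.60 and OsWRKY62 at 1.93 ± 1.25. NAC074, with 1.31, 2.51 and 1.93, kept its call with any 1 array left out (limma adjusted p up to 0.0491). NAC45 lost it without replicate 2 (limma adjusted p = 0.0749) and OsWRKY62 without replicate 1 or 2 (limma adjusted p up to 0.118), and without replicate 2 the list had 1 rise.

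Of 65 bZIP, MYB, homeobox and MADS probes, 13 rose and 7 fell (median 0.30, and 0.13 without replicate 2). MYB45 (LOC4341803) had 2.35, 3.22 and 2.68, a mean of 2.75 ± 0.44 (limma adjusted p = 0.000886). The homeobox gene Hox22 (LOC4336542) had 2.54, 3.81 and 1.21 (limma adjusted p = 0.0126), lost without replicate 1 or 2 (limma adjusted p up to 0.141), and BZIP50 had 1.90, 1.43 and 3.78 (limma adjusted p = 0.032), lost without any 1 of the 48 h arrays (limma adjusted p up to 0.141). HOX2 (LOC4340070) had nearly equal falls of -1.90, -1.81 and -1.83, a mean of -1.84 ± 0.05 (limma adjusted p = 0.00345). Without replicate 1 or 2 the list had 2 and 1 rises and 3 falls each time.

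Of 63 probes for calmodulin-like proteins and calcium-linked kinases, 8 rose and 3 fell (median 0.17, and 0.06 without replicate 2). CML27 (LOC4332731), for a calmodulin-like calcium sensor, had 2.68, 5.01 and 2.67, a mean of 3.45 ± 1.35 (limma adjusted p = 0.00572), lost without replicate 2 (limma adjusted p = 0.0732). CIPK16 (LOC4347071), for a kinase driven by calcineurin B-like sensors, had -3.10, -2.63 and -1.88, a mean of -2.54 ± 0.62 (limma adjusted p = 0.00293). Another such gene, CIPK23 (LOC4342410), fell on a probe with -2.29, -1.55 and -2.07 (limma adjusted p = 0.00262), while its second probe averaged -0.18 ± 0.22. No rise of this list was called without replicate 2, while 2 falls were. Without replicate 1 there were 3 rises and 2 falls, and with the block 12 and 5. Of 18 probes for mitogen-activated and receptor kinases, the brassinosteroid receptor gene BRI1 alone was called, lower at -1.03 ± 0.58, and lost without replicate 1 or 2. Among 14 clock and flowering probes 3 rose, all of pseudo-response regulators: OsPRR95 at 1.74 ± 0.68, lost without replicate 2 (limma adjusted p = 0.0584), and both probes of OsPRR73 at 1.40 ± 0.86 and 1.39 ± 1.21, lost without replicate 1 or 2, the second also without 24 h replicate 1 and 12 h replicate 2 or 3 (limma adjusted p up to 0.151 and 0.315).

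The machinery of DNA replication stood low. Of 22 tested probes 9 fell and none rose, and 21 of the 22 had means below 0, with a median of -0.94. PCNA (LOC4331062), for the sliding clamp of DNA polymerase, had -1.48, -2.04 and -1.15, a mean of -1.56 ± 0.45 (limma adjusted p = 0.00556), lost without replicate 2 (limma adjusted p = 0.0637). The helicase subunit gene MCM3 (LOC4339099) had -3.36, -3.21 and -0.80 (limma adjusted p = 0.012), and OsRPA70b (LOC4332052), for a single-strand binding protein, had -3.31, -3.75 and -1.25 (limma adjusted p = 0.0121), both lost without replicate 1 or 2 (limma adjusted p up to 0.129 and 0.133). MCM5, with -3.97, -4.45 and -0.12, was not called (limma adjusted p = 0.0529). Replicate 3 was nearest to 0 for all 4 genes, and the list's median was -0.96, -1.65 and -0.53 in replicates 1 to 3. Without replicate 1 the list had 4 falls and without replicate 2 none, where 522 of 18476 and 271 of 21103 probes fell over the whole array.

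Cyclins, their kinases and inhibitors had 7 falls and no rise among 43 probes (median -0.32, and -0.48 without replicate 3). The mitotic cyclin genes CycB2;2 (LOC4342121) and CYCB1-1 (LOC4327547) had -3.45, -3.22 and -1.74, and -3.45, -3.56 and -1.12, with means of -2.80 ± 0.93 and -2.71 ± 1.38. The D-type cyclin gene CYCD3-2 averaged -1.99 ± 1.28. All 3 lost their calls without replicate 1 or 2 (limma adjusted p up to 0.0872, 0.136 and 0.105). Without replicate 1 the list had 1 fall and without replicate 2 none, and with the block 11 falls and 1 rise.

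The cytoskeleton list went both ways, with 6 rises and 8 falls among 47 probes (median -0.36, and -0.56 without replicate 3). TUB1 (LOC4326917), for a beta-tubulin, had -3.36, -3.18 and -2.44, a mean of -2.99 ± 0.49 (limma adjusted p = 0.000916), but its second probe had -0.24, 0.41 and 0.17. ADF7 (LOC4337605), for an actin-depolymerizing factor, had -3.14, -1.30 and -2.57, a mean of -2.33 ± 0.94 (limma adjusted p = 0.00203). The related gene ADF10 averaged 1.43 ± 0.84, the actin gene ACT7 1.30 ± 0.31 and the formin gene FH16 1.63 ± 1.66, all called higher. These rises were lost without replicate 1 or 2, and ACT7 also without replicate 3 and FH16 without 24 h replicate 1 or 3 or any 12 h array (limma adjusted p up to 0.156, 0.144 and 0.327). The list had no rise and 3 falls without replicate 1, no rise and 2 falls without replicate 2, and 7 rises and 15 falls with the block.

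Ribosomal protein genes shifted together, and all 18 tested probes had means below 0 while 10 fell (median -1.0, against -0.55 at 12 h and -0.50 at 24 h). RPL5 (LOC4325100) had -2.12, -2.36 and -1.37, a mean of -1.95 ± 0.52 (limma adjusted p = 0.00211), and kept its call with any 1 array left out. RPS10-2 averaged -1.61 ± 0.65, lost without replicate 2 (limma adjusted p = 0.0517), and RPL7A-2 averaged -1.52 ± 0.54, lost without replicate 1 or 2 (limma adjusted p up to 0.175). The list had 3 falls without replicate 1, 1 without replicate 2 and 15 with the block. Translation factors did not follow: none of 14 probes was called, with a median of -0.05 (0.08 without replicate 1) and means of 0.23 ± 0.36 for EF-1-alpha, which brings aminoacyl-tRNA to the ribosome, and -0.38 ± 0.39 for the cap-binding factor gene eIF-4E-1.

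Auxin genes fell more often than they rose, with 16 falls and 2 rises among 53 probes, 30.2% and 3.8%, and a median of -0.23. They encode the Aux/IAA repressors and ARF factors of the growth hormone auxin, with its conjugating enzymes and carriers. ARF3 (LOC4327014) had -2.24, -2.59 and -1.95, a mean of -2.26 ± 0.32 (limma adjusted p = 0.000893), held with any 1 array left out. IAA30 (LOC4352721) had -3.72, -3.35 and -1.27, a mean of -2.78 ± 1.32 (limma adjusted p = 0.00832), lost without replicate 1 or 2 (limma adjusted p up to 0.0941), and ARF15 averaged -2.15 ± 0.53, lost without replicate 2 (limma adjusted p = 0.0635). The carrier gene OsPIN4 had 1.38, 3.29 and 0.46 and rose (limma adjusted p = 0.0351), lost without 48 h replicate 1 or 2, 12 h replicate 1 or 2 or 24 h replicate 1 (limma adjusted p up to 0.296). Without replicate 1, 2 or 3 the list had 6, 5 and 14 falls. Cytokinin and gibberellin genes had 3 rises and 2 falls among 27 probes, none of them called without replicate 2 and 1 rise without replicate 1. The largest of each were the response regulator gene RR21 at 1.00 ± 0.50 and CKX5, for an enzyme that breaks cytokinin down, at -1.65 ± 1.46 from -2.48, -2.50 and 0.03.

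For the cell wall, 7 of 62 probes fell and 1 rose (median 0.06, and -0.01 without replicate 3). The expansin genes EXPB3 and EXPB6, whose proteins loosen walls, averaged -2.14 ± 1.19 and -1.71 ± 0.48, and CSLA1, for a mannan synthase-like protein, -2.0 ± 1.32. EXPB3 was lost without replicate 1 and the other 2 without replicate 1 or 2 (limma adjusted p up to 0.091, 0.166 and 0.155). No probe of the list was called without replicate 1 and 1 fall without replicate 2, while without replicate 3 and with the block there were 4 rises, with 7 and 8 falls. Beside CAD7 and CCR1, which kept their calls with any 1 array left out, the lignin list of 18 probes had a fall for CAD6 at -1.30 ± 0.97 and a rise for CAD1 at 1.00 ± 0.61, the first lost without replicate 1 or 2 and the second without any 1 of the 48 h arrays, 12 h replicate 2 or 24 h replicate 1 (limma adjusted p up to 0.256 and 0.304). The 2 family members CAD7 and CAD1 thus had opposite signs.

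Aquaporins, the water channels of plant membranes, had more rises than falls. Of 24 tested probes 6 rose and 2 fell (median 0.23, and 0.12 without replicate 2), and the 3 largest rises were tonoplast genes, whose channels let water into the vacuole. OsTIP3;1 (LOC4348981) had 3.37, 4.29 and 3.77, a mean of 3.81 ± 0.46 and a 14.1-fold rise (limma adjusted p = 0.000329). OsTIP2;2 (LOC4340941) had 3.88, 4.89 and 1.71 (limma adjusted p = 0.0121), lost without replicate 1 or 2 (limma adjusted p up to 0.137), and OsTIP4;1 (LOC4338163) had 1.17, 3.54 and 1.55 (limma adjusted p = 0.0199), lost without replicate 2 (limma adjusted p = 0.198). Both falls were probes of the plasma membrane gene OsPIP2;1 (LOC4343122), with -2.52, -2.21 and -2.33 on the first, a mean of -2.35 ± 0.16 (limma adjusted p = 0.00057), and -1.90 ± 0.08 on the second. A second plasma membrane gene, OsPIP1;1, had 0.84 ± 0.21 on a called probe, lost without replicate 1 or 2 (limma adjusted p up to 0.138), and -0.44 ± 0.33 on an uncalled probe. Without replicate 1 or 2 the list had 2 rises and 2 falls.

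Of 62 probes for carriers of ions and phosphate signalling, 6 rose and 5 fell (median 0.22, and 0.11 without replicate 2). These were 9.7% and 8.1%, near the 7.41% of all probes called each way. The rises included OsYSL13, for a carrier of metal chelates, at 3.31 ± 2.62 from 3.88, 5.60 and 0.45, and the potassium carrier gene HAK1 at 1.68 ± 0.76, both lost without replicate 1 or 2, OsYSL13 also without 12 h replicate 2 or 24 h replicate 1 (limma adjusted p up to 0.345 and 0.254). The family member osysl7 (LOC4328077) had -2.91, -2.70 and -1.25 and fell (limma adjusted p = 0.00156). The list had 1 rise without replicate 1, none without replicate 2 and 10 with the block, and 5 falls each time.

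The other 4 falls of that list were all genes with an SPX domain, a sensor module of phosphate supply that in rice holds back the phosphate starvation response. OsSPX2 (LOC4328654) had -2.78, -2.66 and -3.46, a mean of -2.97 ± 0.43 and a level 7.83-fold lower in starved cells (limma adjusted p = 0.00246). OsSPX3 (LOC4348535) had -3.18, -3.05 and -1.91, a mean of -2.71 ± 0.70 (limma adjusted p = 0.000854). Chosen after their values were seen, OsSPX5 averaged -1.80 ± 0.29 (limma adjusted p = 0.00178) and OsSPX1 -1.65 ± 0.42 (limma adjusted p = 0.00405). All 4 were low on every array and kept their calls with any 1 array left out, while the 2 probes of OsSPX4 averaged 0.46 ± 0.19 and -0.38 ± 0.38 and were not called.

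OsSPX2 and OsSPX3 lay nearer to 0 at the earlier times. OsSPX2 had 0.18, -0.52 and 0.51 at 12 h and -1.82, 0.34 and -2.50 at 24 h, both uncalled. OsSPX3 had 0.55, -0.28 and -0.06 at 12 h and -0.89, 0.45 and -0.60 at 24 h, again uncalled. For both genes the 3 values at 48 h overlapped those of neither earlier time. Over all probes, such a lack of overlap was found for 892 of 18428 against 24 h and for 2011 of 18348 against 12 h. Groups of 3 values can part in this way without a true difference, so it is no sign of a late fall by itself. The difference 48 minus 12 h was -3.03 (SE 0.631) for OsSPX2 and -2.78 (SE 0.463) for OsSPX3, and the difference 48 minus 24 h was -1.64 (SE 0.631) and -2.36 (SE 0.463). None of these 4 differences passed limma's test over all probes (adjusted p = 0.576 and 0.542, and 1.0 for both against 24 h).

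**Figure D4:**
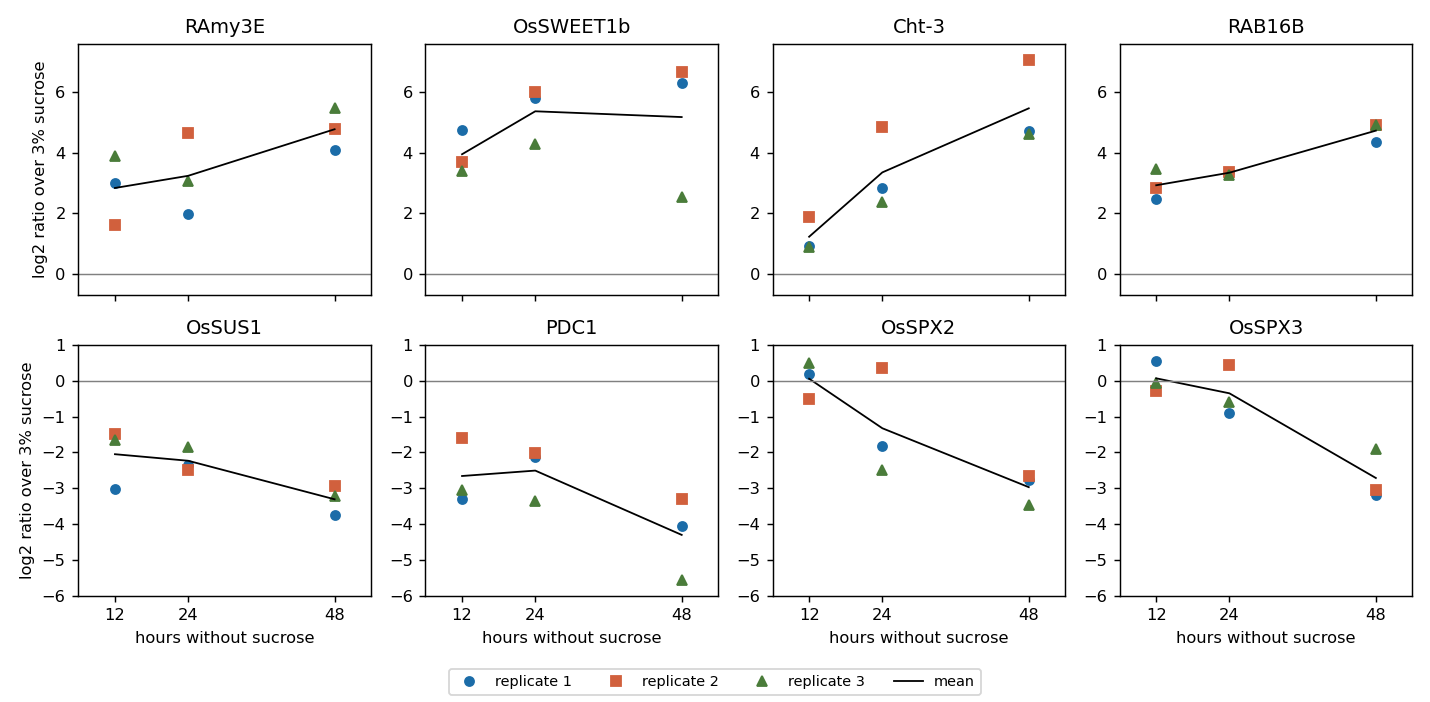
Log2 ratio of starved over control cells at 12, 24 and 48 h for RAmy3E, OsSWEET1b, Cht-3, RAB16B, OsSUS1, PDC1, OsSPX2 and OsSPX3, with a point for each of 3 arrays at each time and a line through the means. RAmy3E and OsSWEET1b are above 2 on average at 12 h already, and OsSPX2 and OsSPX3 average 0.06 and 0.07 at 12 h against -2.97 and -2.71 at 48 h.

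The probes called at 48 h mostly had means of the same sign at the earlier times. At 24 h limma called 699 of 20971 probes (3.33%; 1.99% higher and 1.34% lower), and at 12 h 633 of 20089 (3.15%; 1.85% and 1.3%). Of 1368 probes that rose at 48 h and were tested at 24 h, 398 (29.1%) had risen at 24 h, and of 1369 that fell, 264 (19.3%) had fallen. Seen from the other side, 418 probes rose at 24 h and 281 fell. Of those that were also tested at 48 h, 95.9% and 95.0% had the same call there. At 12 h the first shares were 284 of 1365 (20.8%) and 221 of 1368 (16.2%). In all 371 probes rose at 12 h and 262 fell, and of those also tested at 48 h 77.0% and 85.7% had the same call there. No probe was called in opposite directions at 48 h and at either earlier time, and the means had the same sign at 24 h for 1365 of the risen and 1365 of the fallen. At 12 h they did for 1324 of 1365 risen and 1299 of 1368 fallen probes, and the others had the opposite sign. These times share no array, and per the labels each had control cells of its own age. Their calls are still not independent, as all came from 1 fit with a shared estimate of each probe's spread. Same-numbered arrays of 24 and 48 h also deviated together (r = 0.563, 0.424 and 0.491).

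The probes that rose at 48 h had a median of 1.43 there and 1.04 at 24 h, and those that fell had -1.42 and -0.94. They were chosen by their 48 h values, which by itself favours larger values at that time. The difference itself was tested over all probes. None of 18428 was called for 48 minus 24 h and none of 18348 for 48 minus 12 h by limma (0.0% each), while 243 and 1085 had an unadjusted p under 0.05 and the lowest adjusted p were 1.0 and 0.403. In simulated data with the probes' own spread, these 2 tests recovered 1% and 0% of 100 probes shifted by 1 on the log2 scale. Of 100 probes shifted by 2 they recovered 36% and 44%. The simulated arrays were independent and equal in spread. The real ones differed in reach, and those of 24 and 48 h deviated together by number. The shares recovered hold for the simulated setting only. Counts of 0 do not show that the times were alike. With the replicate block none and 3 were called, the 3 being Cht-3, LOC4333820 and LOC4331723. For 48 minus 12 h the block assumes a pairing by number that the arrays of these times did not show throughout. The 3 values at 48 h lay wholly above or below those at 24 h for 892 of the 18428 probes, and those at 12 h for 2011 of the 18348. Groups of 3 values can part in this way without a true difference, so these counts are no sign of change by themselves.

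For Cht-3 the mean at 48 h was 5.47 ± 1.38, against 3.35 ± 1.33 at 24 h and 1.22 ± 0.55 at 12 h, and without overlap between 48 and 12 h. RAB16B had 4.73 ± 0.32 at 48 h, 3.34 ± 0.06 at 24 h and 2.92 ± 0.50 at 12 h, its 48 h arrays above all earlier ones. MT1A had 2.66 ± 0.93, against 0.65 ± 0.52 and 0.49 ± 0.72. In contrast, OsSWEET1b had 5.18 ± 2.29 at 48 h, 5.37 ± 0.94 at 24 h and 3.95 ± 0.72 at 12 h, and GDH2 had 3.67 ± 0.71, 3.09 ± 0.31 and 3.83 ± 0.85 on its higher probe. IVD had 1.93 ± 0.58, 2.14 ± 0.66 and 2.78 ± 0.55, and OsPPDKB 2.33 ± 2.10, 2.77 ± 1.20 and 3.80 ± 0.88. The 12 h means of the last 4 genes lay within or above the range of their 48 h arrays and those of the first 3 below it, but none of these differences between times passed the test without the replicate block. With it, that of Cht-3 between 48 and 12 h did, at 4.25 (SE 0.377, limma adjusted p = 0.00558). The block treats 12 h arrays as paired by number too, although same-numbered arrays of 12 and 48 h did not deviate together in every pair (r = -0.081, -0.116 and 0.459). That result therefore rests on a pairing the data do not bear out.

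**Figure D5:**
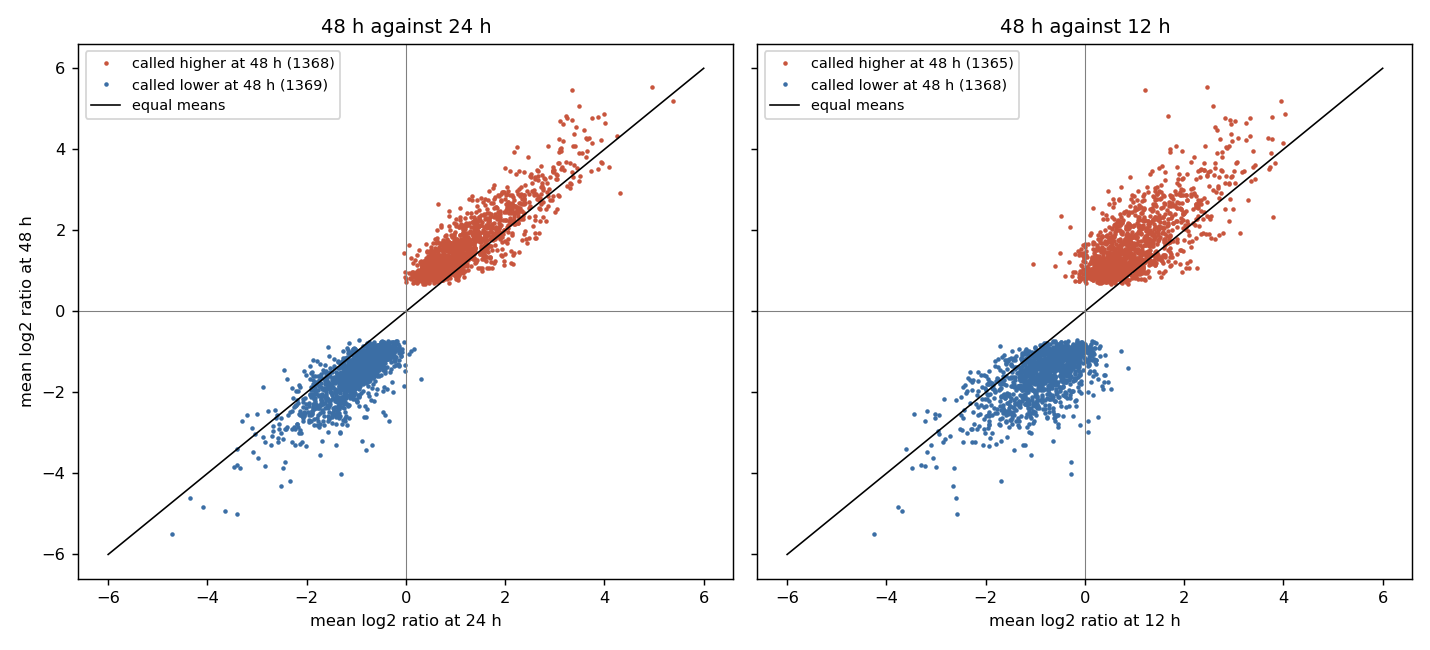
Mean log2 ratio at 48 h (vertical) against the mean at 24 h (left) and at 12 h (right) for the probes called at 48 h, those that rose and those that fell in separate colours, with the line of equal values. Nearly all points share a sign at both times, and 1206 of the 1368 risen and 1280 of the 1369 fallen probes lie farther from 0 at 48 h than at 24 h, as probes chosen by their 48 h value would tend to.

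Larger changes than those of most named genes were found at loci without a gene name. LOC4333820 had 5.39, 6.55 and 4.66, a mean of 5.54 ± 0.95 and a 46.4-fold rise (limma adjusted p = 0.000329), and LOC4334015 averaged 5.07 ± 1.33 (33.7-fold). LOC4347408 had -5.37, -5.35 and -5.74, a mean of -5.49 ± 0.22, 44.8-fold lower in starved cells (limma adjusted p = 0.000329), and LOC4348110 averaged -5.01 ± 1.51 (32.2-fold lower). The 3 arrays of LOC4347408 lay close together, and no named gene had a mean as low.

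Probes of the same gene did not always tell the same story. For 1317 genes with 2 tested probes, the median gap between their 48 h means was 0.364 on the log2 scale. Of 315 genes with several tested probes and at least 1 call, 55 had every probe called in 1 direction, and 4 had probes called in opposite directions. Of these 4 only OsRac6 has a name, singled out after its values were seen: its probes averaged 2.88 ± 1.57 and -1.43 ± 0.35 (limma adjusted p = 0.00718 and 0.00461), and each call was lost with 1 of the 9 arrays left out. The others were LOC4324621, LOC4339823 and LOC9271539.

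Markers of other cell types were read from lists for seed and leaf. None of 6 seed storage protein probes was called, with a median of 0.02 (-0.06 without replicate 2) and means from -0.79 ± 0.92 for the globulin gene GLB to 0.42 ± 0.46 for RA14. Of 13 photosynthesis and chlorophyll probes 2 rose and 2 fell (median 0.20). The photosystem genes PSAH (LOC4339593) and PSBW (LOC4327150) had 3.44, 4.09 and 1.15, and 3.25, 0.98 and 1.08, the first lost without replicate 2 (limma adjusted p = 0.0632) and the second without 48 h replicate 1 or 2 or 12 h replicate 2 (limma adjusted p up to 0.201). The ferredoxin reductase gene FNR and the tetrapyrrole gene HEMD averaged -1.69 ± 0.45 and -1.18 ± 0.50, the first lost without replicate 2 (limma adjusted p = 0.0838) and the second without replicate 1 or 2 (limma adjusted p up to 0.105). The part of these markers in the other results was not tested.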

How the data were processed

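Agilent rice arrays with starved cells in Cy5 and control cells in Cy3 were used, per the labels' protocols, with polyadenylated RNA. The values were the processed log ratios that the authors deposited, 1 column per array, with scale, centring and direction unstated. The values the authors deposited were read as natural log ratios and turned to log2 here; the calls do not depend on the base, and the sizes of changes do. Read so, 55, 51 and 37 of the values checked on the 48 h arrays gave a ratio of only 1 decimal, against 5, 3 and 6 when the deposited values were read as log2. Background correction and normalization were not given in the sources used here, nor was the software. Signal over background was not analysed here, and the number of arrays limits the precision. No column of values was left unused (0).

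The array annotation gave 1 gene for 17839 of 21495 probes, several for 21 and none for 3635. All 15798 genes were found in RefSeq's table of assembly ASM3414082v1, which was used for names only, and 2105 had a name. Probe and gene sequences were not used here.

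The fit used lmFit and eBayes of limma 3.58.1, run under R 4.3.3, with a mean for each of 3 groups over the 9 arrays against sucrose, two-sided, with Benjamini-Hochberg adjustment over all probes with a value on every array compared and a threshold of 0.05. The sorbitol arrays, which vary less, were left out of it. The fit was tested on simulated data first. The group, lists and genes were chosen with earlier results of these data known. The naming rule took the 15 largest rises and falls among called genes with arrays of 1 sign, the 3 members of each list with the largest mean each way, called or not, differences between times (none called), a panel of 17 genes (16 matched), and every probe of a named gene. Same-numbered arrays of 24 and 48 h deviated together (r = 0.563, 0.424 and 0.491 over 18322 probes), so the numbers were taken to pair them. At 12 and 48 h they did not in every pair (r = -0.081, -0.116 and 0.459). Other fits left out each array, added the replicate numbers as a block, changed the arrays in the fit, or centred, scaled, quantile-normalized or weighted arrays. Tables were made with pandas 2.3.3 and numpy 2.4.6, and plots with matplotlib 3.10.9, all under Python 3.11.15.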

Additional observations from a re-analysis of the deposited data

Results flagged for a closer look

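The naming rule gave 142 probes called and 126 not called at 48 h. Among those with full values, 4 were found for which all 3 arrays at 48 h had one sign and all 3 arrays at an earlier time the other. Other probes were not searched for this, so the 4 cannot be set against a share of all probes. Groups of 3 values can part in sign without a true difference. In none of the 4 did limma's test of the difference pass. ATG5, for a protein of autophagosome growth, had 0.14, 0.14 and 0.25 at 48 h and -0.16, -0.21 and -0.15 at 24 h, a difference of 0.35 (adjusted p = 1.0). OsTIP4;1 had 1.17, 3.54 and 1.55 at 48 h and -0.20, -0.03 and -0.65 at 12 h, a difference of 2.38 (adjusted p = 0.834). OsTPP1 had -2.60, -1.38 and -1.73 at 48 h and 1.07, 0.00 and 0.51 at 12 h, a difference of -2.43 (adjusted p = 0.576). The ATP synthase gene atpB had -0.30, -1.01 and -0.72 at 48 h and 0.31, 0.49 and 0.37 at 12 h, a difference of -1.06 (adjusted p = 0.838), and was called at neither time.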

How the results depend on the processing

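The 48 h count of 2738 became 4590 with all 12 arrays in the fit, 924 with only the 48 h arrays, 4311 with the replicate block and 5797 with that block in a fit of only the 24 and 48 h arrays, a setting chosen after seeing the data. Leaving out 1 array gave 538 to 2935. Fits of fewer arrays have less information on the spread, and the cause of the larger counts was not tested. Centring, scaling, quantile normalization, array weights, robust fitting, a value on at least 2 arrays and averaged probes kept it between 2443 and 2775. The count of 0 for 48 minus 24 h became 1 with the replicate block in a fit of only the 24 and 48 h arrays: LOC4329468, with 0.10 ± 0.91 at 48 h and 3.02 ± 1.42 at 24 h. The count of 0 for 48 minus 12 h became 1 with all 12 arrays (LOC4332932, lower at 48 h) and 3 with the replicate block (Cht-3 and LOC4333820 higher at 48 h, LOC4331723 lower). That block assumes a pairing of 12 and 48 h arrays that their deviations did not show throughout. With 1 array left out both counts were 0 to 0 by limma, with 159 to 626 and 642 to 1523 unadjusted p under 0.05. Of 142 named probes called at 48 h, 2556 of 2840 values under an alternative kept the call and 284 lost it, and none changed sign. The losses were uneven: 83 of the 142 lost their call without 48 h replicate 2, 59 without 48 h replicate 1 and 47 with only the 48 h arrays. The block lost no call of a named probe. Blanks on 48 h replicate 2 left 2640 probes untested, and near copies and single probes limit what is known of a gene.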
